A study of Mus musculus with 24 samples.

Results

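Cholesterol is made in the brain itself, and 7 genes of its synthesis were followed here through the 24 RNA-seq libraries of the series: Hmgcs1, Idi1, Fdft1, Sqle, Lss and Cyp51, which encode enzymes, and Insig1, which encodes a regulator. They were chosen by name, with earlier results of these data known. Each symbol matched 1 row in each of the 8 tables of normalized counts, 7 of the 30270 genes found in any table. The libraries came from bilateral micropunches of 2 regions, the nucleus accumbens and ventral tegmental area (VTA), with 12 libraries each, and tissue was taken 90 min after mice were injected intraperitoneally with PBS or with 5 mg/kg morphine. The study's methods for quantitative PCR and western blot samples give an earlier time for saline-injected mice. Whether that time applied to these libraries is not stated. Mice were wild-type (VDR+/+) or lacked the vitamin D receptor gene (Vdr-/-, VDR-/- in the labels), all on a C57BL/6 background, and each of the 8 combinations of region, genotype and injection had 3 libraries. The ages of these mice are not given in the sources used here. The Vdr-/- mice carry the deletion in all cells and were raised on a lactose-rich diet with extra calcium, and the same diet is not stated for the wild-type mice, so genotype and diet cannot be told apart. The labels give 12 mouse numbers, each used in both regions, without naming separate animals, so p-values measure the spread between these libraries.

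Cells make cholesterol from acetyl-CoA by way of mevalonate, isoprenoids, squalene and lanosterol. When sterols in the endoplasmic reticulum fall, the escort protein SCAP is freed from INSIG proteins, SREBP transcription factors reach the nucleus, and they raise genes along the whole route and INSIG1 itself. Little plasma cholesterol crosses the blood-brain barrier, and in the adult brain oligodendrocytes, which build myelin, and astrocytes carry much of this synthesis.

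A library of the nucleus accumbens held 9328726 to 24509922 reads on genes and a VTA library 12421680 to 30184426, and the 7 genes held 88 to 6999 reads each in any library. Vdr, the deleted gene, held 0 to 14 reads in the nucleus accumbens and 2 to 17 in the VTA. Its median was 6 reads in Vdr-/- and 2.5 in wild-type libraries of the nucleus accumbens, and 7.5 and 8 in the VTA, so these counts do not check the genotypes, which rest on the labels. The 8 markers of medium spiny neurons, the main neurons of the nucleus accumbens, summed to 29937 to 63048 scaled reads there and 2781 to 4040 in VTA libraries, and none was at 0. Libraries of a region differed in marker reads. The summed scaled reads of 8 dopamine neuron markers ran from 38527 to 49122 in VTA libraries of wild-type mice given PBS but from 3176 to 9530 in those given morphine, and from 8392 to 37360 and from 9835 to 19722 in Vdr-/- mice given PBS and morphine. In the VTA, wild-type morphine mouse 1.1 had 175060 scaled reads of oligodendrocyte markers, where the others of its group had 102161 and 117543. A pair of libraries stood apart from the rest of their region in astrocyte or choroid plexus markers. Wild-type PBS mouse 2 had 58054 scaled reads of 8 astrocyte markers in the nucleus accumbens, where the others had 81157 to 91739, and Vdr-/- morphine mouse 2.1 had 1924 of 5 choroid plexus markers in the VTA, where every other library of either region had 127 to 291. Calls that change without either are given with their results. In 3 blood markers, 1 VTA library of wild-type mice given PBS had 3500 summed scaled reads. The other VTA libraries had at most 1735. Scaled reads are read counts divided by a size factor per library, computed over all 24 libraries together, and give 1 scale for both regions. In bulk tissue, fewer cells of a type and less RNA per cell cannot be told apart.

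The sequences just upstream of 4 of the genes are shown because SREBP-controlled promoters are known for sterol regulatory elements beside boxes for the cofactors NF-Y and Sp1, and because the results that follow turn on these genes. RefSeq's table for GRCm38.p6 matched 5 of the 7 genes (Hmgcs1, Idi1, Cyp51, Lss and Insig1), with 250 bases before and 50 after the start site. Each line gives the part of that window upstream of both the RefSeq and the GENCODE start, 5′ to 3′, with capitals for matches on either strand to TCACNCCAC (sterol regulatory element), CCAAT (NF-Y box) or GGGCGG (Sp1 box).
Hmgcs1 (chr13:119690101-119690350, plus strand): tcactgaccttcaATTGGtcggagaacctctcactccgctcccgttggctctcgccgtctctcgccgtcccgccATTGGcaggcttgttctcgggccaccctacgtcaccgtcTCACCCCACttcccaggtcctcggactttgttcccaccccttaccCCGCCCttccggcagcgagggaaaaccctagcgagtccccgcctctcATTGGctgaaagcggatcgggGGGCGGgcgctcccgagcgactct
Cyp51 (chr5:4104747-4104947, minus strand): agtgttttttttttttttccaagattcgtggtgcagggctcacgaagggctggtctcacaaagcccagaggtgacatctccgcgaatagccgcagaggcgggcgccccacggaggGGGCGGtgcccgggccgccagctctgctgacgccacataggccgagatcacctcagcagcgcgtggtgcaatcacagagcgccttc
Lss (chr10:76531355-76531587, plus strand): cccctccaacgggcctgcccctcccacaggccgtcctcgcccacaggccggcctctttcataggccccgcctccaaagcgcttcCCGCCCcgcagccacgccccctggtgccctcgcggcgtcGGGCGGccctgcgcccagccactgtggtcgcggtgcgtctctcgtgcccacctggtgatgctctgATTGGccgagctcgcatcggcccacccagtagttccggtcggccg
Insig1 (chr5:28071162-28071362, plus strand): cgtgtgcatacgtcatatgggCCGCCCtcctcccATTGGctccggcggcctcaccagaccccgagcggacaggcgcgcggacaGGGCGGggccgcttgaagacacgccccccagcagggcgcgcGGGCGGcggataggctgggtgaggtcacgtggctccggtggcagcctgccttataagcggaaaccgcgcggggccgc

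Within the 300-base windows, TCACNCCAC was found in Hmgcs1 only, where it begins 137 bases before the RefSeq start. Of 32851 promoter windows of that length, 1.24% hold these letters. CCAAT occurred in all 5 windows, against 37.4% of all windows, and GGGCGG also in all 5, against 35.7%. No matches overlapped. The CCAAT of Cyp51 lies 29 bases before the RefSeq start, downstream of the stretch printed, while Hmgcs1 held 4 NF-Y boxes in its window, 3 of them in the stretch shown. A match describes letters in a window and was not tested as a site. Only these exact letters were searched, so a window without a match was not shown to lack an element.

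The genes lie on different chromosomes (GRCm38, GENCODE M21), except for 2 pairs. Hmgcs1 (chr13:119690379-119708260, plus strand) and Idi1 (chr13:8885501-8892451, plus strand) share chromosome 13, and Cyp51 (chr5:4081145-4104746, minus strand) and Insig1 (chr5:28071363-28078662, plus strand) share chromosome 5. Sqle lies at chr15:59315077-59331192 on the plus strand, Fdft1 at chr14:63145150-63179578 on the minus strand and Lss at chr10:76531588-76557138 on the plus strand. Of the 25-base words in their transcripts, 19.3% for Idi1 and 16.3% for Fdft1 also occur in transcripts of other genes, mostly the processed pseudogenes Gm13502 and Gm6781, so the counts of these 2 are uncertain. The share was 4.40% for Insig1 and at most 2.04% for the others. Antisense transcripts overlap exons of Hmgcs1 (Gm48342, 557 bases) and Lss (4930483K19Rik, 381 bases). Opposite-strand genes also overlap exons of Idi1 (Gm48574, 323 bases), Cyp51 (Akap9, 166 bases) and Fdft1 (Ctsb, 774 bases). The library kit keeps strand, but the strand setting of the counts is not given in the sources used here, so reads of these pairs may not be separated.

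Per kilobase of exon, Hmgcs1 was the most abundant of the 7 in both regions. It encodes the cytosolic HMG-CoA synthase, which joins acetyl units early in the route, and stood at 46.0 ± 4.86 RPKM (SD, n = 12 libraries) in accumbens libraries and 58.8 ± 6.24 in VTA libraries. In the nucleus accumbens, Fdft1 (16.8 ± 1.34 RPKM), Insig1 (14.7 ± 1.51), Cyp51 (11.6 ± 1.98) and Sqle (8.27 ± 1.05) followed, and the ranges of each pair of neighbours in that order overlapped. Lss (4.85 ± 0.331) and Idi1 (2.67 ± 0.519) came last, with ranges apart from their neighbours. In the VTA, Insig1 stood second at 28.3 ± 3.02 RPKM, its range apart from that of Fdft1 (20.8 ± 1.97). Below it, Fdft1, Cyp51 (16.9 ± 2.49) and Sqle (12.4 ± 1.54) overlapped neighbour by neighbour, and Lss (5.90 ± 0.393) and Idi1 (3.97 ± 0.558) were again lowest. RPKM here are reads over the summed length of all annotated exons of a gene, so a gene with long and rarely used exons reads low.

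**Figure D1:**
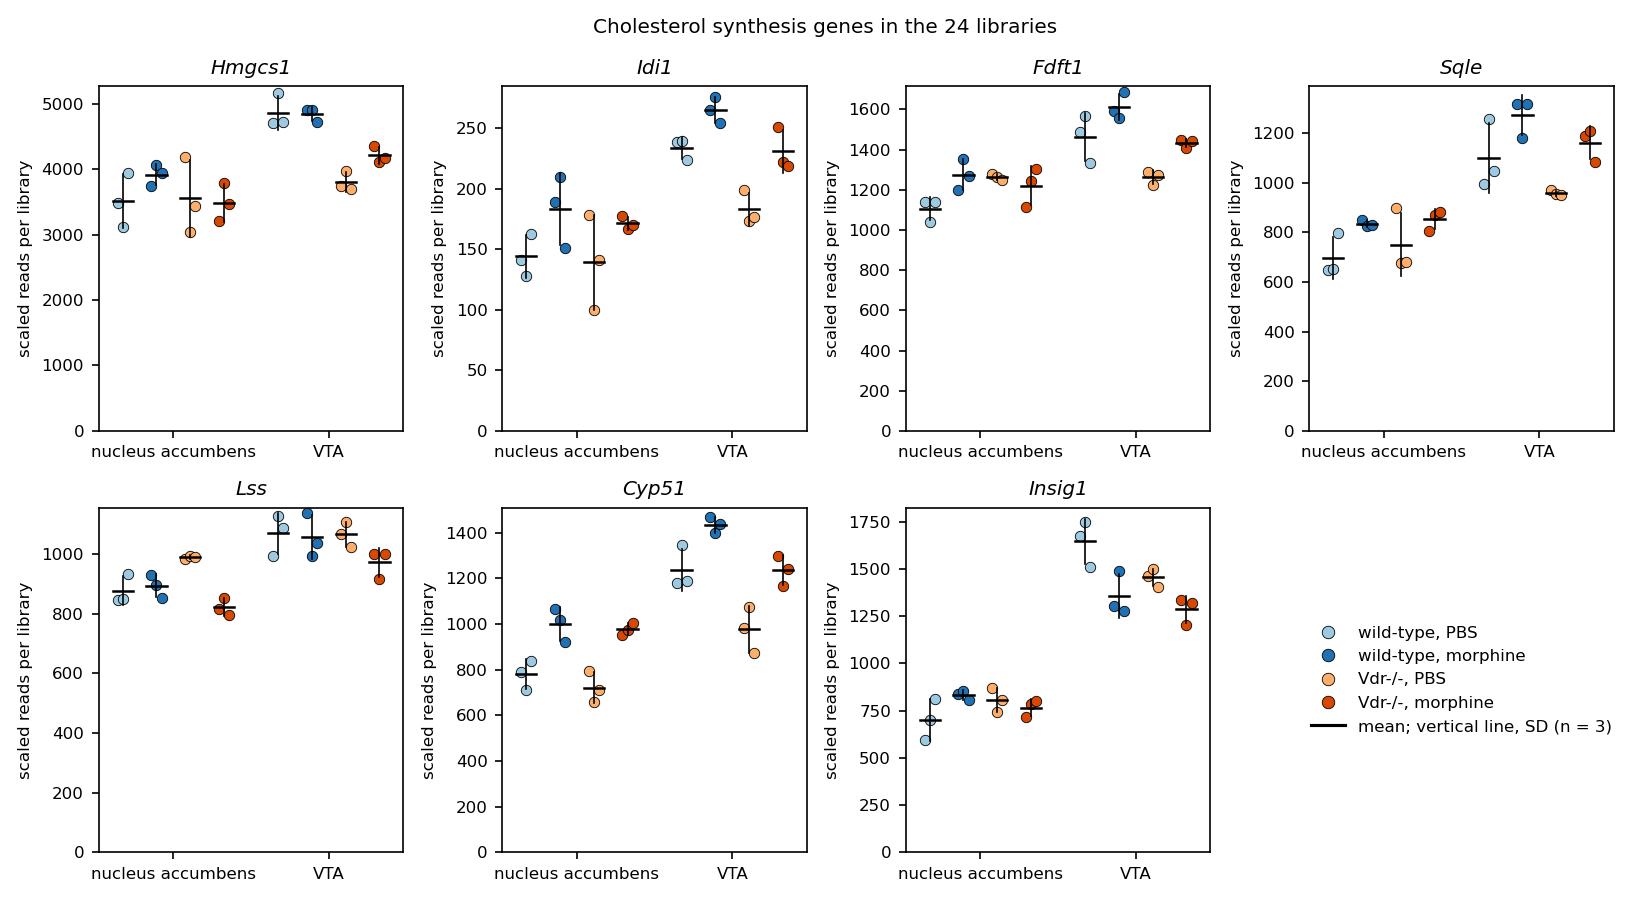
Scaled reads per library (vertical axes, starting at 0) of the 7 genes, for the 4 groups of each region on the horizontal axis. Points are libraries, horizontal lines group means and vertical lines the SD of 3 libraries. Insig1 separates the regions (593 to 869 in the nucleus accumbens, 1205 to 1748 in the VTA). In the VTA the 6 Hmgcs1 points of Vdr-/- mice (3691 to 4356) lie below the 6 of wild-type mice (4697 to 5159).

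The first comparison was between regions, over all 24 libraries. All 7 genes were lower in the nucleus accumbens than in the VTA and all 7 passed the test (limma on log2(scaled reads + 1), Benjamini-Hochberg adjusted p from 3.66e-13 to 9.20e-06), where 37.8% of the 16147 genes tested were called lower and 73.0% were called in either direction. Insig1, whose protein holds SREBP in the endoplasmic reticulum when sterols are plentiful, differed by most, with 593, 802 and 869 scaled reads as lowest, median and highest of 12 libraries in the nucleus accumbens and 1205, 1434 and 1748 in the VTA. Its ranges did not overlap, and the log2 difference was −0.88 (95% interval −0.98 to −0.79). Sqle, the squalene epoxidase that catalyses the first oxygen-dependent step of sterol synthesis, ran from 647 to 898 scaled reads (median 816) in the nucleus accumbens and from 949.6 to 1319.5 (median 1133) in the VTA. The ranges of Sqle were also apart, with a log2 difference of −0.52 (−0.62 to −0.41). These were the 2 of 7 genes with ranges apart in the direction lower, against 12.3% of all genes tested.

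Of the other 5, Idi1, the isomerase that makes the starter unit of isoprenoid chains, was lower in the nucleus accumbens by a log2 difference of −0.52 (−0.68 to −0.37). Cyp51, the demethylase that acts on lanosterol, the first sterol of the route, differed by −0.49 (−0.58 to −0.40). Hmgcs1 differed by −0.29 (−0.39 to −0.20), Fdft1, the squalene synthase that commits the route to sterols, by −0.24 (−0.31 to −0.18) and Lss, which closes squalene epoxide into lanosterol, by −0.22 (−0.28 to −0.15). The region difference was thus largest for the regulator and smallest for Lss, and the median over the 7 genes was −0.49, against −0.02 over all genes tested.

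Within groups, 7 of 7 genes were called lower in the nucleus accumbens in wild-type mice given PBS (57.8% of all genes were called in either direction), in wild-type mice given morphine (46.0%) and in Vdr-/- mice given morphine (44.2%). In Vdr-/- mice given PBS 4 of 7 passed (55.7%), namely Sqle (−0.36), Idi1 (−0.43), Cyp51 (−0.43) and Insig1 (−0.85). In that group Fdft1 differed by 0.00 (95% interval −0.13 to 0.14) and Hmgcs1 by −0.11 (−0.30 to 0.08), where wild-type mice given PBS had −0.40 and −0.47. The difference between genotypes in this region gap (region by genotype interaction) was positive for all 7 genes, from 0.09 for Lss to 0.25 for Fdft1, and 0 of 7 passed (limma, lowest adjusted p 0.870, edgeR 0 of 7). At an unadjusted p under 0.05 there were 4 of 7, against 5.08% of all genes, and 0.00619% of all genes were called.

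Across the rest of the pathway, 11 of 16 other enzymes were lower in the nucleus accumbens, 1 was higher and 4 did not pass (median −0.35), beside 37.8% of all genes tested called lower and 35.2% called higher. Lbr, a sterol reductase of the nuclear envelope, had a log2 difference of −0.61, Ebp, a sterol isomerase, −0.56 and Sc5d, a sterol desaturase, −0.52.

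**Figure D2:**
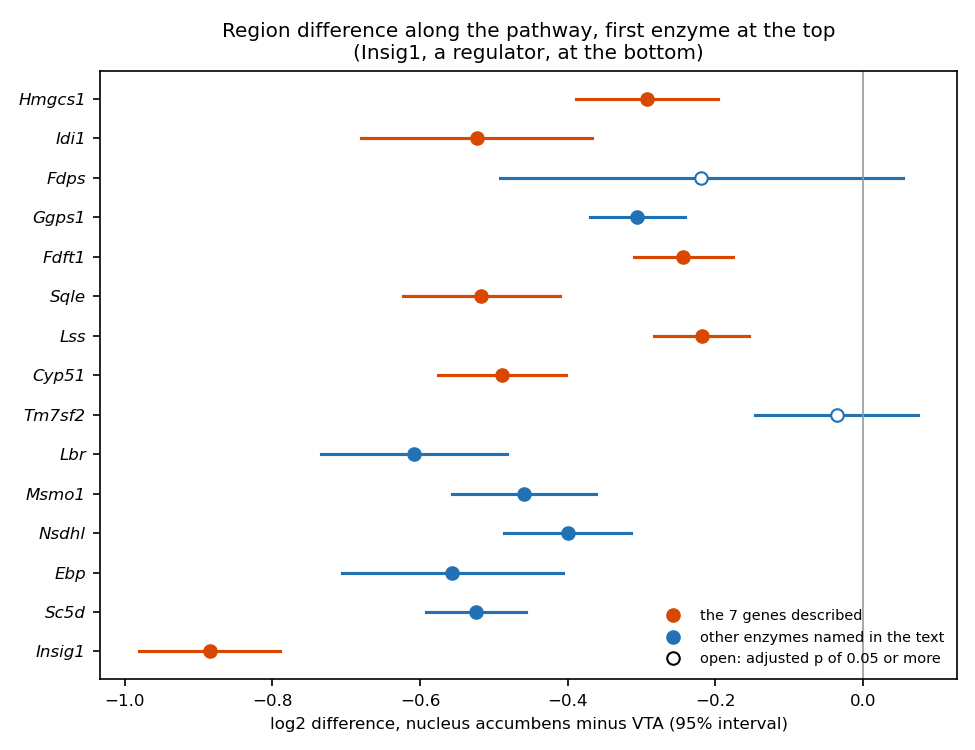
Log2 difference in scaled reads, nucleus accumbens minus VTA, averaged over the 4 groups of genotype and injection (horizontal axis) for the 7 genes and the 8 other enzymes named in the text, in pathway order (vertical axis) with Insig1 last. Bars are 95% intervals over 24 libraries, and open points did not pass. All 7 genes described lie left of 0, from −0.22 for Lss to −0.88 for Insig1.

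Among 12 genes of the SREBP machinery and of sterol uptake, 7 were lower in the nucleus accumbens and 4 higher, shares to be read against 37.8% and 35.2% of all genes. Npc2, a lysosomal sterol carrier, differed by −0.64 and Srebf1, an SREBP gene, by −0.61. Of 12 fatty acid synthesis genes 10 were lower (median −0.66, against −0.02 over all genes tested), among them Scd1, a fatty acid desaturase, at −1.27. Of 11 tested genes of sterol export, storage and turnover 8 were lower and 2 higher, against the same shares of all genes, with Lcat, which esterifies cholesterol in lipoproteins, at −1.12 and Cyp46a1, the neuronal cholesterol 24-hydroxylase, at 1.03.

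Markers of glia differed between the regions as well. All 10 oligodendrocyte markers were lower in the nucleus accumbens (log2 difference −0.71 to −1.17), with summed scaled reads of 66257 to 108947 there and 102161 to 226554 in the VTA, and none was at 0. Of 8 astrocyte markers 6 were lower and 2 higher, all 5 endothelial markers were lower (median −0.39) and 4 of 6 microglia markers were higher (median 0.28), again beside 37.8% of all genes called lower and 35.2% higher. The oligodendrocyte precursor markers summed to 3479 to 4783 in the nucleus accumbens and 5035 to 6452 in the VTA. Summed astrocyte markers went the other way from most single astrocyte markers. Their group medians were 85593 to 90817 scaled reads in the nucleus accumbens and 71841 to 84976 in the VTA. The part of these cell type markers in the region difference of the 7 genes was not tested.

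**Figure D3:**
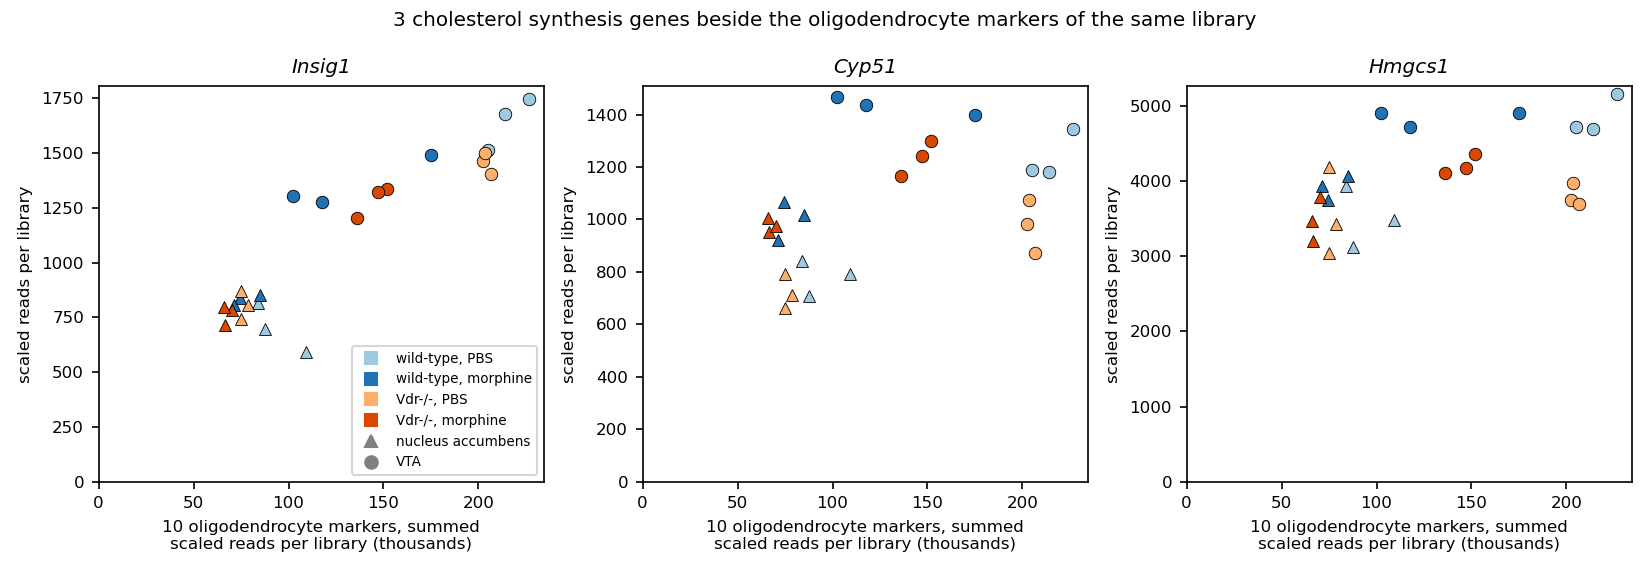
Scaled reads of Insig1, Cyp51 and Hmgcs1 (vertical axes) against the summed scaled reads of 10 oligodendrocyte markers in the same library (horizontal axes), both from 0. In the VTA (circles), libraries after morphine (dark) have fewer oligodendrocyte marker reads than those after PBS (light), Insig1 is lower in them on average (1322 against 1550.4 scaled reads), and Cyp51 is higher (1335 against 1107).

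The genotype comparison asked how loss of the receptor bears on the transcriptome of each region, after each injection. In the VTA after PBS, all 7 genes had lower values in Vdr-/- mice, and 1 of 7, Hmgcs1, passed the test (0.134% of the 16425 genes tested were called lower). Hmgcs1 held 3748, 3977 and 3691 scaled reads in the 3 Vdr-/- libraries and 4697, 5159 and 4721 in the wild-type libraries. The Vdr-/- values all lay below the wild-type values. Within the deposited table of this pair of groups the means were 4657 ± 169 (SD, n = 3) and 5954 ± 311 (n = 3), a log2 difference of −0.35 (SE 0.05, limma, adjusted p 0.0472). The call was lost without wild-type mouse 1, 2 or 3 or Vdr-/- mouse 7 or 9 (0 of 7 called each time), and without Vdr-/- mouse 8 Hmgcs1 and Cyp51 were called.

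The other 6 did not pass in that comparison. Idi1 held 199, 173 and 177 scaled reads in Vdr-/- libraries and 238, 239.5 and 223 in wild-type libraries (log2 difference −0.36, adjusted p 0.170 in limma). Cyp51 held 984, 1075 and 871 against 1179.7, 1345 and 1189 (−0.35, adjusted p 0.170 in limma). For both, the groups were apart. Fdft1 differed by −0.21, Sqle by −0.19, Insig1 by −0.18 and Lss by −0.01 (95% interval −0.14 to 0.13). In 6 of 7 genes, Lss being the exception, every Vdr-/- value lay below every wild-type value in the table, against 10.7% of all genes tested, and 5 of 7 had an unadjusted p under 0.05, against 14.2%.

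After morphine, the VTA values of all 7 genes were again lower in Vdr-/- mice, from −0.07 for Insig1 to −0.21 for Cyp51, and 0 of 7 passed (limma, lowest adjusted p 0.436, with 3 of 7 at an unadjusted p under 0.05, DESeq2 and edgeR 0 of 7). Of all genes 0.0624% were called and 8.77% had an unadjusted p under 0.05. Hmgcs1 held 4356, 4103 and 4173 scaled reads in Vdr-/- libraries and 4909, 4901 and 4723 in wild-type libraries, a log2 difference of −0.20 (−0.31 to −0.08). These values do not overlap, nor do those of Idi1, Cyp51 and Fdft1, 4 of 7 genes against 7.45% of all genes tested.

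The genotype difference averaged over both injections, a contrast added after the values were seen, used the 12 VTA libraries. Hmgcs1 was lower in Vdr-/- mice by a log2 difference of −0.28 (95% interval −0.35 to −0.20, limma, adjusted p 0.00376) and Cyp51 by −0.28 (−0.40 to −0.16, adjusted p 0.0373), 2 of 7 genes, with 0.486% of all genes called lower. All 6 Vdr-/- libraries had fewer Hmgcs1 scaled reads (3691 to 4356) than all 6 wild-type libraries (4697 to 5159), which held for 0.560% of all genes. The Hmgcs1 call held with each of the 12 libraries left out in turn, and that of Cyp51 was lost without Vdr-/- mouse 7, 9, 2.1 or 2.2 or wild-type mouse 1, 2, 1.0 or 1.2 (1 of 7 called), and without wild-type mouse 3, where Fdft1 was called beside Hmgcs1. Idi1 (−0.28, adjusted p 0.0651), Fdft1 (−0.19, adjusted p 0.0735), Sqle (−0.16), Insig1 (−0.12) and Lss (−0.06) did not pass in limma.

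In the nucleus accumbens the genotype differences had no common direction. After PBS, 5 of the 7 point estimates were above 0 and 2 below, from −0.10 for Cyp51 to 0.22 for Insig1, and 0 of 7 passed (limma, lowest adjusted p 0.498, 2 of 7 at an unadjusted p under 0.05, edgeR and DESeq2 0 of 7), with 0.0690% of all genes called and 8.94% at an unadjusted p under 0.05. Fdft1 and Lss had ranges apart there, both higher in Vdr-/- mice, 2 of 7 genes against 7.26% of all. Lss held 982, 995 and 991 scaled reads in Vdr-/- libraries and 846, 851 and 934 in wild-type libraries, a log2 difference of 0.19 (0.02 to 0.36, adjusted p 0.529 in limma). After morphine 6 of 7 estimates were below 0, with −0.17 for Hmgcs1 (−0.31 to −0.03), and 0 of 7 passed (limma, lowest adjusted p 0.576, 1 of 7 at an unadjusted p under 0.05, edgeR and DESeq2 0 of 7), with 0.192% of all genes called and 7.73% at an unadjusted p under 0.05. Lss and Insig1 were lower in Vdr-/- mice with ranges apart, 2 of 7 genes against 7.39% of all. Averaged over injections, the estimates ran from −0.08 to 0.07 and 0 of 7 passed (limma, 0 of 7 at an unadjusted p under 0.05, edgeR 0 of 7), where 0.374% of all genes were called.

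In the VTA contrast of genotypes averaged over injections, 1 of the 16 other enzymes passed, Msmo1, a methylsterol oxidase of the steps after Cyp51, at −0.22 (limma, adjusted p 0.00811). Called were 0 of 11 SREBP machinery and uptake genes, 0 of 11 export and turnover genes and 0 of 12 fatty acid synthesis genes (limma). At an unadjusted p under 0.05 these lists held 5, 2 and 10 genes, against 13.3% of all genes, and the fatty acid genes had a median of −0.15. Of the cell type lists, 0 oligodendrocyte (median 0.03), 0 astrocyte (−0.06) and 0 dopamine neuron (0.13) markers were called in limma, with 1, 1 and 0 at an unadjusted p under 0.05, against a median of −0.19 for the 7 genes and −0.00 for all genes. Dopamine neuron markers had a median of −1.15 after PBS and 1.35 after morphine in Vdr-/- against wild-type VTA. Summed oligodendrocyte markers had a median of 203301 scaled reads in Vdr-/- and 214177 in wild-type VTA libraries after PBS. After morphine these medians were 146967 and 117543. Summed astrocyte markers had medians of 75530 and 84976 after PBS, and 73966 and 71841 after morphine, in the same order of genotypes. The part of the markers in the genotype differences was not tested.

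Morphine against PBS asked for the acute response to the drug. In the nucleus accumbens of Vdr-/- mice, 1 of 7 genes rose and 1 fell (9.94% of the 15820 genes tested were called higher and 9.13% lower). Cyp51 held 953, 976 and 1007 scaled reads after morphine and 793, 660.4 and 713 after PBS, so that all values after morphine were higher. The log2 difference was 0.45 (SE 0.07, limma, adjusted p 0.00155), with table means of 899 ± 24.5 (SD, n = 3) and 661 ± 62.2 (n = 3). Lss moved the other way, with 817, 854 and 797 scaled reads after morphine and 982, 995 and 991 after PBS (−0.26, SE 0.05, adjusted p 0.00589 in limma). The Lss groups were apart as well, so 1 of 7 genes was apart in each direction, against 18.5% of all genes higher and 19.4% lower. Without Vdr-/- PBS mouse 7, whose Sqle and Idi1 values were the highest of its group, Sqle and Idi1 were also called higher, which gave 4 of 7.

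In wild-type nucleus accumbens, all 7 estimates were above 0 and 0 of 7 passed (limma, lowest adjusted p 0.141, 3 of 7 at an unadjusted p under 0.05, edgeR and DESeq2 0 of 7), with 0.813% of all genes called and 16.6% at an unadjusted p under 0.05. Cyp51 held 1066, 1019 and 920.5 scaled reads after morphine and 792, 709.8 and 840.4 after PBS, a log2 difference of 0.37 (0.15 to 0.60). Its groups were apart, as were those of Sqle (0.28) and Fdft1 (0.22), 3 of 7 genes against 12.3% of all. Lss differed by 0.04 (−0.14 to 0.23). Averaged over genotypes, again a contrast added afterwards, Cyp51 rose by 0.41 (0.27 to 0.55, limma, adjusted p 0.00128), with all 6 libraries after morphine (920.5 to 1066) above all 6 after PBS (660.4 to 840.4). It was the 1 of 7 genes called, beside 9.87% of all genes called higher, and its ranges were apart in a direction that 4.02% of all genes showed. Sqle (0.24, adjusted p 0.0505) and Idi1 (0.35, adjusted p 0.0879) did not pass in limma. Sqle and Idi1 were called without Vdr-/- PBS mouse 7 (3 of 7 called), Sqle without wild-type PBS mouse 3 and Lss without wild-type PBS mouse 2 (2 of 7 each).

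In the VTA, each table for this comparison contains 5 libraries, since wild-type mouse 3 and Vdr-/- mouse 8, both given PBS, have no column in them. In Vdr-/- mice 2 of 7 genes rose, Cyp51 and Sqle (4.74% of the 16364 genes tested were called higher). Cyp51 held 1299, 1166 and 1244 scaled reads after morphine and 984 and 871 after PBS in the libraries tested, a log2 difference of 0.41 (SE 0.07, limma, adjusted p 0.0220). Sqle held 1190.3, 1209 and 1085 against 969 and 949.6 (0.26, SE 0.06, adjusted p 0.0430 in limma). Both pairs of groups were apart, as were those of all 7 genes: 5 higher after morphine (23.7% of all genes) and 2 lower, Lss at −0.11 and Insig1 at −0.17 (24.7%). Neither gene was called without Vdr-/- PBS mouse 7 or 9 or morphine mouse 2.2 (0 of 7), and without morphine mouse 2.0 or 2.1 Cyp51 alone was (1 of 7).

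In wild-type VTA 0 of 7 passed (limma, lowest adjusted p 0.0699, 1 of 7 at an unadjusted p under 0.05, edgeR 0 of 7), with 3.65% of all genes called and 24.2% at an unadjusted p under 0.05. Insig1 came nearest, with 1302, 1489 and 1278 scaled reads after morphine and 1677 and 1748 after PBS in the libraries tested (−0.36, 95% interval −0.56 to −0.16). The values after morphine were all lower, which 23.0% of all genes showed. Insig1 was called by DESeq2, in the fit of all 12 VTA libraries and without morphine mouse 1.1, 1 of 7 each time. Cyp51 differed by 0.17 (−0.01 to 0.34).

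The VTA morphine difference averaged over genotypes, also a contrast added after the values were seen, used all 12 VTA libraries. There 4 of 7 genes rose with morphine and 1 fell, beside 15.6% of all genes called higher and 15.6% called lower. Cyp51 rose by 0.27 (0.15 to 0.39, limma, adjusted p 0.00372), Idi1 by 0.25 (0.12 to 0.38, adjusted p 0.00889), Sqle by 0.24 (0.11 to 0.37, adjusted p 0.00913) and Fdft1 by 0.16 (0.06 to 0.25, adjusted p 0.0155). Insig1 fell by 0.24 on the log2 scale (−0.35 to −0.12, adjusted p 0.00603 in limma), while Hmgcs1 (0.07, −0.01 to 0.14) and Lss (−0.08, −0.18 to 0.02) did not pass. Within each genotype, every Cyp51 value after morphine (1398 to 1468 in wild-type, 1166 to 1299 in Vdr-/- mice) lay above every value after PBS (1179.7 to 1345 and 871 to 1075). Across genotypes they overlapped, since wild-type values after PBS reached those of Vdr-/- mice after morphine.

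**Figure D4:**
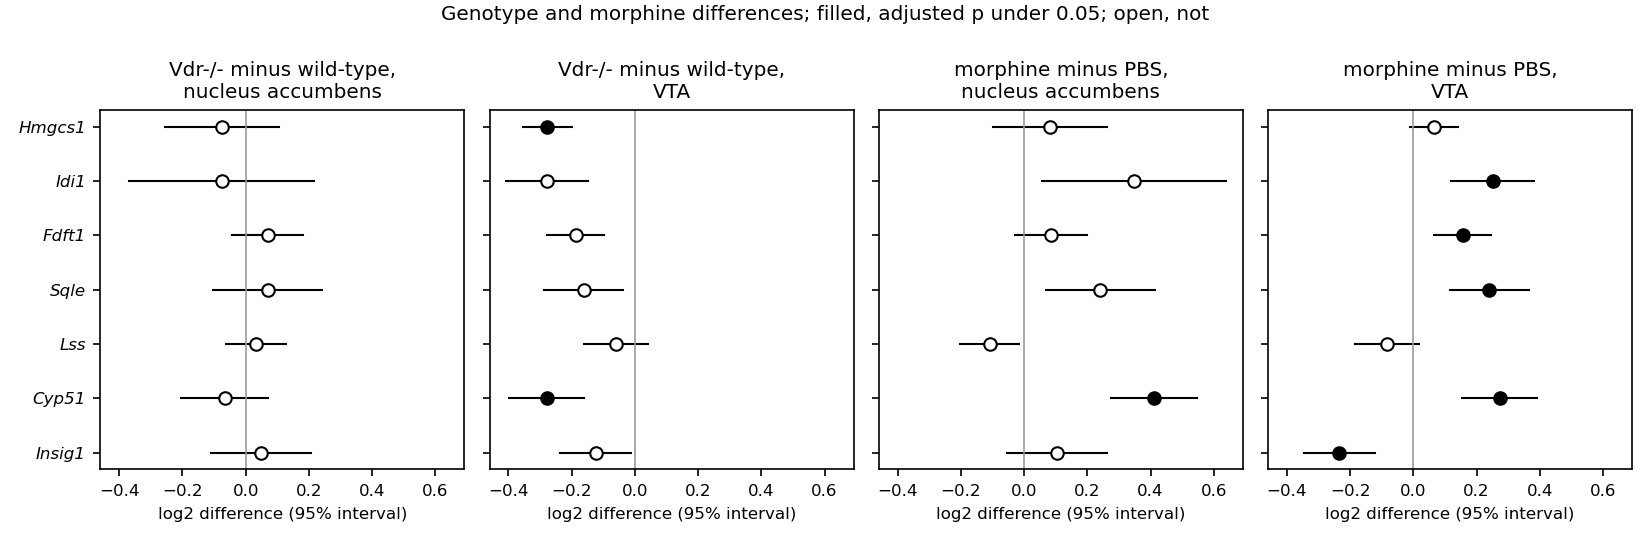
Log2 differences (horizontal axis, with 95% intervals) of the 7 genes between genotypes and between injections, from the fits of 12 libraries per region, averaged over the other factor. Filled points passed (adjusted p under 0.05). In the VTA all 7 genotype differences lie left of 0 (−0.06 to −0.28), and with morphine Cyp51 (0.27) and Insig1 (−0.24) lie on opposite sides.

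The other genes of the pathway moved as follows with morphine in the VTA, both genotypes averaged. Of 16 other enzymes 6 rose and 2 fell, and these counts and those of the lists that follow stand beside 15.6% of all genes called higher and 15.6% called lower. Fdps, which makes farnesyl diphosphate, rose by 0.51, Nsdhl, a sterol dehydrogenase, by 0.27 and Msmo1 by 0.25, and Ebp was lower by a log2 difference of −0.24. Of 11 SREBP machinery and uptake genes 2 rose and 4 fell, with Srebf1 at −0.51. Of 11 export, storage and turnover genes 0 rose and 7 fell, among them Lcat (−0.71), Mylip (−0.40), the sterol exporter Abca1 (−0.34) and Apoe, the main apolipoprotein of the brain (−0.30). Of 12 fatty acid synthesis genes 0 rose and 3 fell.

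In the nucleus accumbens, with both genotypes averaged, 3 of 16 other enzymes rose with morphine and 1 fell, where 9.87% of all genes were called higher and 9.95% lower. Sc5d rose by 0.35, Msmo1 by 0.27 and Ggps1, which makes geranylgeranyl diphosphate, by 0.18, with Tm7sf2, a sterol reductase, at −0.26. Cyp46a1 had a log2 difference of −0.40. Of 12 fatty acid synthesis genes 3 rose, with Scd1 at 0.38 and Elovl6, a fatty acid elongase, at 0.35, and 0 fell.

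Cell type markers differed between the libraries after morphine and those after PBS. In the VTA all 10 oligodendrocyte markers fell with morphine (median −0.65), 7 of 8 dopamine neuron markers fell (−1.82) and 5 of 8 astrocyte markers fell (−0.27), beside 15.6% of all genes called lower. All 6 microglia markers fell as well (−0.73), as did 4 of 5 endothelial markers (−0.24). Summed oligodendrocyte markers were 204818 to 226554 scaled reads after PBS and 102161 to 175060 after morphine in wild-type mice, and 202346 to 206580 and 135839 to 151874 in Vdr-/- mice. In the nucleus accumbens 7 of 8 medium spiny neuron markers fell (−0.64), 4 of 10 oligodendrocyte markers fell (−0.22), 5 of 6 microglia markers fell (−0.35), and of the astrocyte markers 4 of 8 rose and 1 fell (0.16), beside 9.95% of all genes called lower and 9.87% higher. Summed microglia markers were 4051 to 4735 scaled reads after PBS and 2386 to 2711 after morphine in wild-type VTA, 3283 to 4533 and 2589 to 2938 in Vdr-/- VTA, 4461 to 4803 and 3290 to 3678 in wild-type nucleus accumbens, and 4170 to 4386 and 3375 to 3644 in Vdr-/- nucleus accumbens, and none was at 0. In the same VTA comparison Cyp51, Idi1, Sqle and Fdft1 rose and Insig1 fell. Most markers of oligodendrocytes, microglia, dopamine neurons, astrocytes and endothelial cells fell there. The part of these markers in the morphine differences was not tested.

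Whether the morphine response depends on genotype was tested as an interaction within each region. The VTA fit held 10 libraries, without wild-type mouse 3 and Vdr-/- mouse 8, both given PBS. In the nucleus accumbens 0 of 7 genes passed (limma, lowest adjusted p 0.832, 3 of 7 at an unadjusted p under 0.05 and 5.80% of all genes, edgeR 0 of 7), and 0% of all genes were called. The largest estimates were −0.34 for Insig1 (−0.65 to −0.03) and −0.30 for Lss (−0.49 to −0.11), Vdr-/- minus wild-type. In the VTA 0 of 7 passed (limma, lowest adjusted p 0.324, 1 of 7 at an unadjusted p under 0.05 and 12.2% of all genes, edgeR 0 of 7), with 0.0553% of all genes called, and the estimate for Hmgcs1 was 0.21 (0.04 to 0.38). The calls of Cyp51 in Vdr-/- mice and not in wild-type mice do not show a difference between genotypes, since its interaction was 0.07 (−0.20 to 0.34) for the nucleus accumbens and 0.24 (−0.00 to 0.48) for the VTA.

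Between regions the morphine response differed for 1 of 7 genes, Insig1, at 0.32 (nucleus accumbens minus VTA, 95% interval 0.13 to 0.51, limma, adjusted p 0.0250), with 6.07% of all genes called higher. Its morphine difference was 0.10 (−0.05 to 0.26) for the nucleus accumbens, against −0.24 for the VTA. The call was lost without wild-type PBS mouse 1, wild-type morphine mouse 1.0 or 1.2, Vdr-/- PBS mouse 8 or Vdr-/- morphine mouse 2.1 or 2.2 (0 of 7 called). The call was also lost when same-numbered libraries of the regions were treated as 1 mouse, a replicate block (0 of 7 called). For Cyp51, which was called in both regions, the response differed by 0.12 (−0.05 to 0.30).

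The 7 genes did not vary as 1 block. Over the 12 libraries of a region, with log2(scaled reads + 1), Pearson's r between pairs of them ran from −0.51 (Cyp51 with Lss) to 0.84 (Idi1 with Cyp51) in the nucleus accumbens, with a median of 0.49 over 21 pairs. In the VTA it ran from −0.35 (Sqle with Insig1) to 0.89 (Idi1 with Cyp51), with a median of 0.42. In the VTA the pairs among Hmgcs1, Sqle, Idi1, Cyp51 and Fdft1 lay between 0.68 and 0.89, while pairs of these with Lss or Insig1 lay between −0.35 and 0.32. These values describe libraries that share groups, scaling and punch content.

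Among 12440 other genes with a mean of at least 50 scaled reads, those most like the mean of the 7 in both regions included Msmo1 (r 0.90 for the nucleus accumbens, 0.85 for the VTA), Stard4 (0.81 and 0.79), Smad2 (0.77 and 0.80) and Acsl4 (0.75 and 0.77), each over 12 libraries per region. Msmo1 is an enzyme of the same route and Stard4 encodes a sterol carrier. Smad2 encodes a mediator of TGF-beta signaling, and Acsl4 an enzyme that activates long-chain fatty acids.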

How the data were processed

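Total RNA of the punches was made into directional libraries and sequenced as paired-end reads. Per the labels and the study's methods, the authors trimmed adapters (Trimmomatic 0.36) and used STAR 2.4.2a for mapping against GENCODE on GRCm38 and for gene counts. The deposited values are a signal, reads divided by DESeq2 size factors within each of 8 tables of 2 groups. In each library 100% of values were whole multiples of 1 read (tolerance 0.01), so counts of reads were recovered. STAR's gene counts leave out reads that map to several places. Depth is given with the results and limits precision, and intervals from the fits cover the spread between libraries.

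The 7 genes and all lists were chosen with earlier results of these data known. Of the lists, the called genes with the largest change (at most 4 per list and comparison) are named, except some that are not reported here. The test was limma 3.58.1 (eBayes with trend, two-sided) for log2(value + 1) of genes with a mean of at least 10, Benjamini-Hochberg adjusted over all genes tested, at 0.05. Pairs of groups were tested within their table, so fold changes of pairs come from the deposited values, and contrasts of regions and contrasts over 12 libraries from recovered reads with shared size factors. Folds are on the log2(value + 1) scale. edgeR 4.0.16, DESeq2 1.42.0, TMM scaling, a pseudocount of 0.5, no filter, no trend, all 12 libraries of a region and left-out libraries were alternatives. Code was tested on simulated data. R 4.3.3, Python 3.11.15, numpy 2.4.6, pandas 2.3.3 and matplotlib 3.10.9 were used.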

Additional observations from a re-analysis of the deposited data

Results flagged for a closer look

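The difference of the Insig1 morphine response between the regions was itself past the threshold of its test, at 0.32 on the log2 scale (nucleus accumbens minus VTA, limma, adjusted p 0.0250, 24 libraries). The call was lost without any 1 of 6 mice (wild-type 1, 1.0 and 1.2, Vdr-/- 8, 2.1 and 2.2), with 0 of 7 genes called each time. The call was also lost when same-numbered libraries of the regions were treated as 1 mouse, a replicate block (0 of 7 called). In the VTA, Insig1 was lower on average after morphine in both genotypes (1357 against 1646 scaled reads in wild-type and 1287 against 1455 in Vdr-/- mice, 3 libraries each), while in the nucleus accumbens it was 833 against 701 in wild-type and 767 against 806 in Vdr-/- mice. The summed oligodendrocyte markers fell with morphine in the same VTA libraries. Most dopamine neuron, microglia, astrocyte and endothelial markers fell there too, with both genotypes averaged. The part of these markers in the result was not tested.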

How the results depend on the processing

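Over the comparisons with alternatives, the difference of a single gene kept its direction and its side of the threshold in 1656 refits, lost a call in 36, gained one in 15 and reversed in 43. The region difference (7 of 7 called) and the VTA morphine difference averaged over genotypes (5 of 7) kept their counts in every alternative run for them. For genotype in the VTA after PBS, where 1 gene was called, DESeq2 called 2 (Hmgcs1 and Cyp51) and limma without a trend 0. For morphine in wild-type mice, where 0 were called, the fit of all 12 libraries called 1 in the nucleus accumbens (Cyp51) and 1 in the VTA (Insig1), and DESeq2 1 in the VTA (Insig1). For morphine in Vdr-/- VTA, where 2 were called, TMM scaling and no filter each left 1 (Cyp51) and no trend 0, and the fit of 12 libraries called Cyp51 and Idi1 but not Sqle. DESeq2 called 3 there, Hmgcs1 (0.17) beside Cyp51 and Sqle, and in Vdr-/- nucleus accumbens it called 2, Cyp51 and Lss, as limma did. For genotype in the VTA averaged over injections, where 2 were called, no trend left 1 (Hmgcs1). The cause was not tested for these. The averaged contrasts and their alternatives were added after the data were seen.

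With single libraries (or mice, for the contrasts with region) left out, the number of genes called ranged from 0 to 2 for genotype in the VTA after PBS, from 2 to 4 for morphine in Vdr-/- nucleus accumbens, from 0 to 1 for morphine in wild-type VTA and also in Vdr-/- VTA, from 0 to 1 for the region by injection interaction, from 1 to 3 for morphine in the nucleus accumbens averaged over genotypes, and from 1 to 2 for genotype in the VTA averaged over injections. In the morphine tables of the VTA this left 1 PBS library in some fits, which was assumed to vary like the others.

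Mouse numbers are shared by the regions, and the deviations of same-numbered libraries from their group means correlated at −0.07 to 0.17. Without a reference from libraries of different numbers, this cannot show whether they came from the same mice. The main fits did not pair them. With a replicate block for mouse, the region difference still gave 7 of 7 calls, the region by genotype interaction 0, and the region by injection interaction 0 in place of 1, with Insig1 at 0.32 and no longer past the threshold.

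Uncalled differences near 0 changed sign. The region by injection estimate became 0.010 with edgeR and 0.018 with TMM for Hmgcs1, and 0.0023 with TMM for Sqle. With a library left out, genotype in the nucleus accumbens after PBS ran from −0.10 to 0.13 for Hmgcs1, from −0.025 to 0.21 for Sqle and from −0.26 to 0.16 for Idi1. After morphine it ran from −0.22 to 0.024 for Idi1 and from −0.092 to 0.013 for Cyp51, and averaged over injections from −0.17 to 0.036 for Idi1 and from −0.0058 to 0.11 for Insig1. Genotype in the VTA ran from −0.055 to 0.033 for Lss after PBS and from −0.11 to 0.0028 for Insig1 after morphine. Morphine in Vdr-/- nucleus accumbens ran from −0.12 to 0.11 for Hmgcs1 (0.044 without morphine mouse 2.0) and from −0.099 to 0.014 for Fdft1. In wild-type VTA it ran from −0.11 to 0.020 for Hmgcs1, from −0.0011 to 0.33 for Sqle and from −0.11 to 0.060 for Lss. The genotype by injection interaction ran from −0.18 to 0.059 for Sqle and from −0.24 to 0.18 for Idi1 in the nucleus accumbens (0.0084, 0.017 and 0.093 without morphine mouse 2.1, 1.0 and 1.1), and from −0.065 to 0.27 for Sqle and from −0.17 to 4.89e-06 for Lss in the VTA. The region by injection interaction ran from −0.069 to 0.068 for Hmgcs1 (0.042 without mouse 2.0), from −0.090 to 0.049 for Sqle (7.36e-05 without mouse 1.2) and from −0.011 to 0.15 for Idi1. Idi1 had the fewest reads (88 to 355 per library), and its intervals were the widest of the 7 genes in the region difference.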
